A study of Gallus gallus with 24 samples.

Results

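Genes that mark the epicardium and other mesothelia were followed in RNA from the sinoatrial node (SAN) and atria of the embryonic chick heart. The set held 6 genes, chosen by name: WT1, TCF21, BNC1, UPK1B, UPK3B and PDPN. Of these, 5 had a row among the 12422 named genes of the expression table, and UPK3B had none. The epicardium is the mesothelial sheet that covers the myocardium. Some of its cells undergo an epithelial to mesenchymal transition (EMT), enter the heart wall and give rise to fibroblasts and to mural cells of the coronary vessels. It is also a main source of retinoic acid in the developing heart.

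SAN and atria were microdissected at HH stage 30 and compared in 6 groups with 4 replicate pools in each, giving 24 libraries. CN03 groups were cultured for 14 hours with 0.25 ug/ml CN03, a bacterial toxin-derived activator of the GTPase RhoA. Vehicle groups were cultured for the same 14 hours with water, and t0 groups were taken without culture. Every pool combined 5 tissue preparations, and pools were of whole tissue, with no sorting and no removal of the covering epicardium described. CN03 against vehicle asked what RhoA activation did to expression, vehicle against t0 asked what culture alone did, and SAN against atria asked how the tissues differed.

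Values are log2 expression as deposited, so that a difference of 1 is a 2-fold difference. Levels of different genes were not compared with each other, because transcript length was not known. Marker sums, which add linear values of several genes, were compared only between groups, and genes with high values weigh most in them. Fold changes come from limma, fitted over all 24 libraries with Benjamini-Hochberg adjustment over the 12422 genes. A gene was called when its adjusted p was under 0.05 and its log2 fold change passed 1 in either direction. The difference between tissues in a response was called on the adjusted p alone. In bulk tissue, fewer cells of a type and less RNA per cell cannot be told apart. The tissues matched their labels at t0, where 4 of 4 pacemaker markers were called higher in SAN than in atria, beside 6.86% of all genes. There 3 of 3 atrial markers were called lower, beside 2.87%. Libraries of a group correlated with r from 0.977 to 0.992. Vehicle-treated SAN replicate 1 stood apart in a count of genes above a low level in the library concerned. It had 67 genes more than 1 log2 unit above all 3 other vehicle-treated SAN libraries, against 1 to 25 such genes in each of the other 23 libraries. UPK1B was one of these genes, and its fold changes that involve vehicle-treated SAN are given in the text with and without that library. Its ratios to other genes and its correlations are given only with the library. Its other fold changes keep the library, which enters their SE through the shared fit.

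With CN03, the transcription factor genes WT1 and BNC1 fell in both tissues, and the surface glycoprotein gene PDPN rose in both. TCF21 also fell in both tissues, but passed the fold limit only in atria. Its responses in the tissues were not called different (limma adjusted p = 0.129). UPK1B rose in atria and was not called in SAN. In SAN, 3 of the 5 genes were called with CN03 against vehicle, beside 27.4% of all genes. In atria all 5 were called, beside 29.4% of all genes, and for each of them the 4 CN03 libraries lay entirely outside the range of the 4 vehicle libraries, as they did for 66.5% of all genes. In SAN this held for 3 of the 5, beside 62.2% of all genes. The median log2 fold change over all genes was -0.06 in SAN and -0.01 in atria. Without vehicle-treated SAN replicate 1, the SAN log2 fold changes were -1.21 for WT1, -3.08 for BNC1, -0.80 for TCF21 and 1.14 for PDPN, with the same calls.

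**Figure D1:**
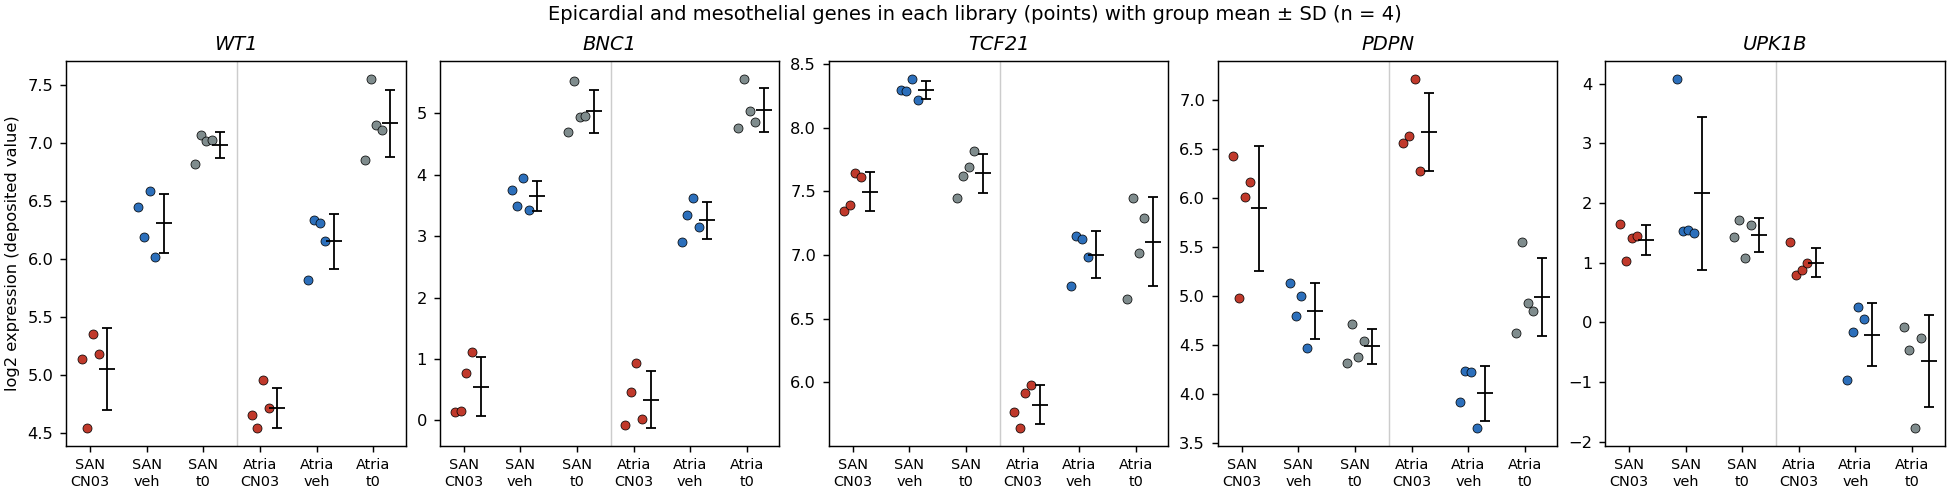
Deposited log2 expression of WT1, BNC1, TCF21, PDPN and UPK1B in each of the 24 libraries (points), with the mean and SD of each group of 4 (bars); red is CN03, blue is vehicle and grey is t0, with SAN left of atria, and each gene has its own vertical scale. WT1 and BNC1 were lowest in the CN03 groups of both tissues, PDPN was highest there, and 1 vehicle-treated SAN library stood at 4.08 for UPK1B while the other 3 lay between 1.49 and 1.55.

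WT1 encodes a zinc finger transcription factor that is a standard marker of epicardial cells. It lies on chromosome 5 at 5632358 to 5720014 of the GRCg7b assembly. In SAN, its log2 expression was 5.14, 4.54, 5.36 and 5.18 in the 4 CN03 libraries and 6.45, 6.19, 6.58 and 6.02 in the 4 vehicle libraries. The groups did not overlap, and WT1 fell 2.39-fold (log2 fold change -1.26, SE 0.162, limma adjusted p = 2.94e-07). In atria it was 4.65, 4.54, 4.95 and 4.71 with CN03 and 5.82, 6.33, 6.31 and 6.15 with vehicle, again without overlap. The fall there was 2.71-fold (log2 fold change -1.44, SE 0.162, limma adjusted p = 2.92e-08). The responses differed by 0.18 log2 units (SAN minus atria), with a 95% interval of -0.29 to 0.66 (limma adjusted p = 0.594), so no difference between the tissues was shown.

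Culture alone moved WT1 in the same direction. The t0 libraries read 6.82, 7.07, 7.02 and 7.03 in SAN and 6.85, 7.56, 7.16 and 7.12 in atria, all above the vehicle libraries of their own tissue. With vehicle against t0, WT1 fell 2.02-fold in atria (log2 fold change -1.02, SE 0.162, limma adjusted p = 1.03e-05). In SAN the difference of -0.68 did not reach the fold limit (limma adjusted p = 0.00128). WT1 thus had 3 levels, lowest with CN03, higher with vehicle and highest at t0, and at each level the SAN and atrial ranges overlapped.

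BNC1 had the largest change with CN03 of the 5 genes in each tissue. It encodes basonuclin 1, a zinc finger protein of stratified epithelia and germ cells that in mammals is also used as a mesothelial and epicardial marker, and it lies on chromosome 10 at 11316675 to 11387777. In SAN its log2 expression was 0.14, 0.16, 0.78 and 1.12 with CN03 and 3.75, 3.50, 3.95 and 3.42 with vehicle. In atria it was -0.08, 0.45, 0.94 and 0.03 with CN03 and 2.91, 3.35, 3.61 and 3.15 with vehicle. No CN03 library reached any vehicle library in either tissue. The fall was 8.62-fold in SAN (log2 fold change -3.11, SE 0.246, limma adjusted p = 1.03e-10) and 7.57-fold in atria (log2 fold change -2.92, SE 0.246, limma adjusted p = 2.27e-10). The responses of the tissues differed by -0.19 log2 units, with a 95% interval of -0.91 to 0.53 (limma adjusted p = 0.735).

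At t0, BNC1 read 4.70, 5.52, 4.94 and 4.96 in SAN and 4.76, 5.57, 5.04 and 4.86 in atria. Vehicle culture lay below these values in every library, by 1.38 log2 units in SAN (SE 0.246, limma adjusted p = 6.42e-05) and 1.80 in atria (SE 0.246, limma adjusted p = 1.26e-06). Against t0, the CN03 groups were 22.4-fold lower in SAN (limma adjusted p = 1.13e-13) and 26.4-fold lower in atria (limma adjusted p = 3.20e-14). These folds share the CN03 libraries with the comparisons above. They rest on low log2 values with CN03 (-0.08 to 1.12), whose read counts are unknown. Like WT1, BNC1 had 3 levels, lowest with CN03 and highest at t0, with overlapping SAN and atrial ranges at each. The summed linear level of 10 cardiomyocyte markers was 6974 to 8366 in CN03-treated SAN against 9235 to 13433 with vehicle, and 15121 to 22301 in CN03-treated atria against 23227 to 27169 with vehicle. Of these 10 markers, 1 was called higher and 4 lower with CN03 in SAN, beside 10.2% and 17.1% of all genes. In atria 0 were called higher and 3 lower, beside 13.8% and 15.6%. The part of these markers in the WT1 and BNC1 results was not tested.

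TCF21 encodes a basic helix-loop-helix factor of the epicardium that is also expressed in cardiac fibroblasts and their precursors, and it lies on chromosome 3 at 55955807 to 55958287. In SAN its log2 expression was 7.34, 7.39, 7.64 and 7.61 with CN03 and 8.30, 8.29, 8.39 and 8.22 with vehicle. The groups did not overlap, but the difference of -0.80 (SE 0.129, limma adjusted p = 7.29e-06) did not reach the fold limit. In atria it was 5.77, 5.64, 5.92 and 5.98 with CN03 and 6.75, 7.15, 7.13 and 6.98 with vehicle, a 2.26-fold fall (log2 fold change -1.18, SE 0.129, limma adjusted p = 1.92e-08). The difference between the responses was 0.38 log2 units, with a 95% interval of 0.00196 to 0.755 before adjustment and a limma adjusted p of 0.129.

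The culture response of TCF21 was not that of WT1 and BNC1. At t0 its log2 expression was 7.44, 7.62, 7.69 and 7.82 in SAN, all below the vehicle libraries, which were 0.66 higher (SE 0.129, limma adjusted p = 0.000186). In atria the t0 libraries read 6.65, 7.45, 7.02 and 7.29 and overlapped the vehicle libraries, with a difference of -0.10 (SE 0.129, limma adjusted p = 0.523). The culture response differed between SAN and atria by 0.76 log2 units (SE 0.182, limma adjusted p = 0.00693).

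TCF21 was higher in SAN than in atria in both cultured groups. With CN03 it was 3.19-fold higher in SAN than in atria (log2 fold change 1.67, limma adjusted p = 1.34e-09). With vehicle it was 2.45-fold higher (log2 fold change 1.29, limma adjusted p = 3.00e-08), and neither pair of groups overlapped. At t0 the difference was 0.54 (limma adjusted p = 0.00204), below the fold limit, and the ranges overlapped. The highest group was vehicle-treated SAN, at 8.30 ± 0.0687 (SD, n = 4), and the lowest was CN03-treated atria, at 5.83 ± 0.153 (SD, n = 4).

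Markers of fibroblasts and mesenchyme were read in the same libraries, and their CN03 and vehicle sums separated in SAN but overlapped in atria. Their summed level on the linear scale over 9 of 9 listed genes, among them collagen genes and PDGFRA, ranged over 3684 to 4847 in CN03-treated SAN, 6468 to 6938 in vehicle-treated SAN and 5480 to 5696 in t0 SAN. In atria the sums were 3242 to 4378 with CN03, 4078 to 5665 with vehicle and 4568 to 5359 at t0. With CN03 against vehicle in SAN, 2 of the 9 genes were called higher and 4 lower, beside 10.2% and 17.1% of all genes. In atria 2 were called higher and 3 lower, beside 13.8% and 15.6%. The part of these markers in the TCF21 result was not tested.

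PDPN encodes podoplanin, a mucin-type membrane glycoprotein that is made by mesothelium and lymphatic endothelium and, in mouse, by the sinus venosus myocardium. It lies on chromosome 21 at 5181671 to 5196535. In atria its log2 expression was 6.56, 6.63, 7.22 and 6.27 with CN03 and 3.92, 4.23, 4.23 and 3.65 with vehicle, a 6.33-fold rise without overlap (log2 fold change 2.66, SE 0.248, limma adjusted p = 1.27e-09). In SAN it was 6.42, 4.97, 6.01 and 6.16 with CN03 and 5.13, 4.79, 4.99 and 4.47 with vehicle. CN03 replicate 2, at 4.97, lay within the vehicle range and the other 3 above it, and the rise was 2.07-fold (log2 fold change 1.05, SE 0.248, limma adjusted p = 0.000632). The call in SAN was close to the fold limit, and without CN03 replicate 1, CN03 replicate 4 or vehicle replicate 4 the log2 fold change was 0.87, 0.96 or 0.92. Without CN03 replicate 2 it was 1.35 (limma adjusted p = 6.72e-06).

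The PDPN response to CN03 was smaller in SAN than in atria, by 1.61 log2 units (SE 0.350, limma adjusted p = 0.00139). At t0 the gene read 4.32, 4.71, 4.37 and 4.54 in SAN and 4.62, 5.55, 4.92 and 4.85 in atria. Vehicle culture put atria below every t0 atrial library, by 0.98 log2 units (SE 0.248, limma adjusted p = 0.00164), just short of the fold limit. In SAN vehicle and t0 overlapped, with a difference of 0.36 (SE 0.248, limma adjusted p = 0.232). The culture responses differed by 1.34 log2 units between SAN and atria (SE 0.350, limma adjusted p = 0.0123). Against t0, the CN03 groups stood closer together, at 1.41 log2 units higher in SAN (limma adjusted p = 2.00e-05) and 1.68 higher in atria (limma adjusted p = 1.66e-06).

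Endothelial markers were, like PDPN, higher in CN03-treated atria than in vehicle-treated atria, and lymphatic markers were lower. The summed linear level of 9 of 9 endothelial and endocardial markers was 550 to 694 in CN03-treated atria, 299 to 391 in vehicle-treated atria and 551 to 736 in t0 atria. With CN03 these sums overlapped those at t0, and PDPN lay above every t0 atrial library. In SAN the sum was 479 to 558 with CN03, 569 to 631 with vehicle and 748 to 1052 at t0. Of these 9 genes, 5 were called higher and none lower with CN03 in atria, beside 13.8% and 15.6% of all genes. In SAN 1 was called higher and 1 lower, beside 10.2% and 17.1%. All 9 had a called difference between the tissues in the CN03 response, each in the direction of PDPN, beside 15.4% of all genes in that direction. The 3 lymphatic markers PROX1, LYVE1 and FLT4 summed to 35.8 to 44.7 in CN03-treated SAN against 83.1 to 104 with vehicle, and to 23.0 to 28.6 in CN03-treated atria against 48.9 to 57.0 with vehicle. The part of endothelial cells in the PDPN result was not tested.

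**Figure D2:**
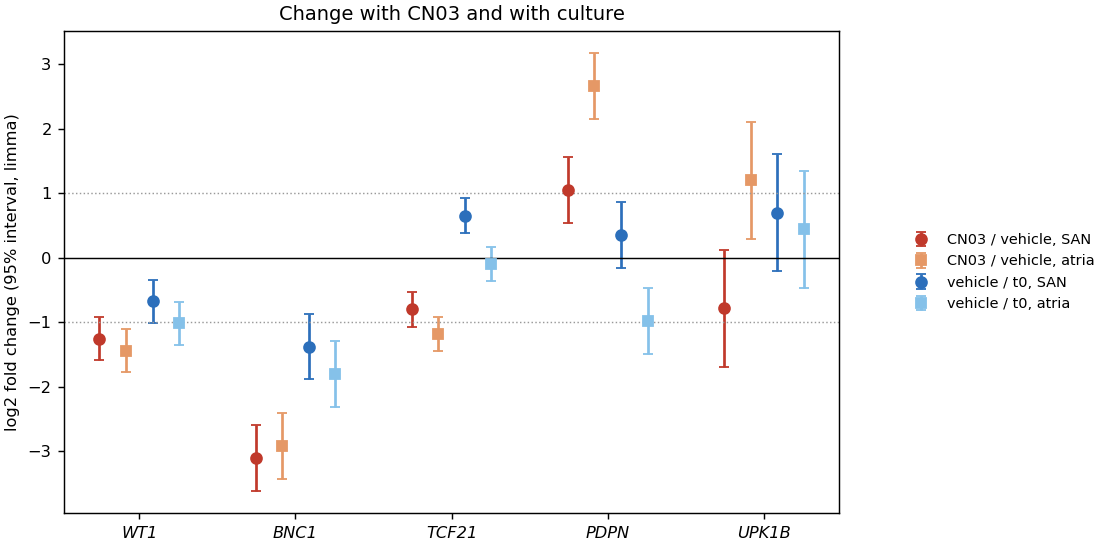
Log2 fold change of each gene (vertical axis) with CN03 over vehicle and with vehicle over t0 in SAN and atria, with 95% intervals from limma; dotted lines mark the fold limit of 1 and -1. WT1 and BNC1 were lower in all 4 comparisons, PDPN was higher with CN03 by 1.05 in SAN and 2.66 in atria, and the interval of UPK1B with CN03 in SAN, unlike that in atria, included 0. Vehicle-treated SAN replicate 1 is included.

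UPK1B encodes uroplakin 1B, a tetraspanin best known from the urothelium and also made by mesothelia. It lies on chromosome 1 at 80833466 to 80845001. In atria its log2 expression was 1.35, 0.79, 0.87 and 0.99 with CN03 and -0.96, -0.17, 0.25 and 0.05 with vehicle. The groups did not overlap, and UPK1B rose 2.31-fold (log2 fold change 1.21, SE 0.438, limma adjusted p = 0.0171). That call was lost without vehicle replicate 1 of the atria (0.95, limma adjusted p = 0.0702) and when 1 was added to each linear value (0.67, limma adjusted p = 0.0603). At t0 atria read -0.08, -0.47, -1.77 and -0.26, and the vehicle and t0 ranges overlapped (0.44, limma adjusted p = 0.404).

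In SAN, UPK1B was 1.65, 1.04, 1.41 and 1.44 with CN03, 4.08, 1.53, 1.55 and 1.49 with vehicle, and 1.42, 1.71, 1.08 and 1.63 at t0. Apart from vehicle replicate 1 at 4.08, all 11 SAN libraries lay between 1.04 and 1.71. The difference between CN03 and vehicle was -0.78 (SE 0.438, limma adjusted p = 0.114) with that library and -0.14 (SE 0.325, limma adjusted p = 0.712) without it. Between vehicle and t0 it was 0.70 (SE 0.438, limma adjusted p = 0.186) with the library and 0.06 (SE 0.325, limma adjusted p = 0.889) without it. The difference between the tissues in the CN03 response was -1.99 (SE 0.620, limma adjusted p = 0.0196) with the library and -1.35 (SE 0.443, limma adjusted p = 0.0292) without it.

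UPK1B differed between the tissues before CN03 was added. At t0 it was 4.31-fold higher in SAN than in atria (log2 fold change 2.11, SE 0.438, limma adjusted p = 0.000544) and no library overlapped. With vehicle SAN was higher by 2.37 log2 units (SE 0.438, limma adjusted p = 0.000124), or by 1.73 without SAN vehicle replicate 1 (SE 0.325, limma adjusted p = 0.000199). With CN03 the ranges of SAN and atria overlapped, with a difference of 0.38 and a 95% interval of -0.52 to 1.29 (limma adjusted p = 0.519).

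Epithelial genes were also read in the same groups. In vehicle-treated SAN replicate 1, EPCAM, an epithelial adhesion molecule, read 5.26 against 0.76 to 1.26 in the other 3 vehicle libraries. CDH1, which encodes E-cadherin, read 4.75 against 1.23 to 2.25, and the tight junction gene CLDN1 read 6.58 against 2.81 to 3.69. The linear sum of EPCAM and CDH1, the 2 of 4 listed epithelial markers with a row, was 18.8 to 31.8 in CN03-treated atria against 5.76 to 8.20 with vehicle, and 18.6 to 27.7 in CN03-treated SAN against 4.04 to 65.1 with vehicle. In atria EPCAM rose by 1.87 log2 units (SE 0.575, limma adjusted p = 0.00577) and CDH1 by 2.05 (SE 0.478, limma adjusted p = 0.000532), beside the rise of UPK1B. In SAN without vehicle replicate 1, EPCAM was 2.95 higher with CN03 (SE 0.226, limma adjusted p = 1.30e-10), and UPK1B was not called. At t0 the sum of EPCAM and CDH1 was 9.59 to 12.4 in SAN and 13.6 to 20.1 in atria, and UPK1B was higher in SAN. In atria that sum was lower with vehicle than at t0, and the UPK1B ranges of these groups overlapped. The part of an epithelial tissue in the UPK1B values was not tested.

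**Figure D3:**
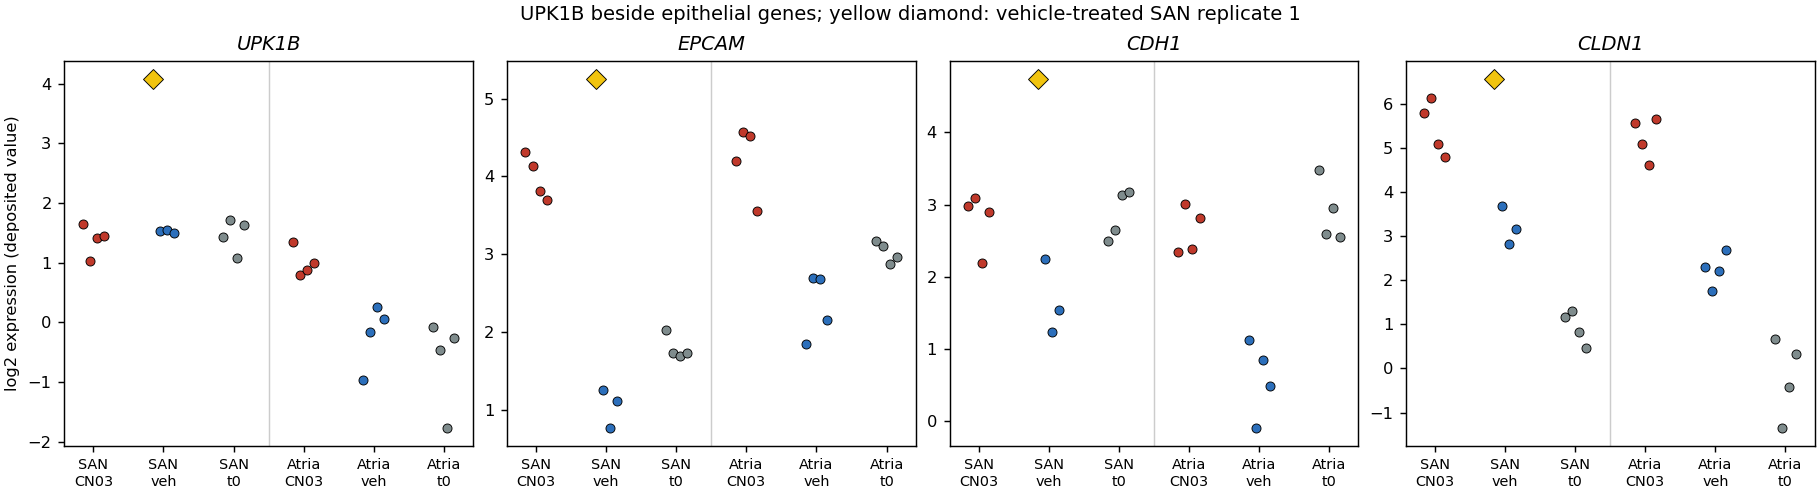
Deposited log2 expression of UPK1B, EPCAM, CDH1 and CLDN1 in each library, by tissue and treatment; red is CN03, blue is vehicle and grey is t0, each gene has its own vertical scale, and the yellow diamond is vehicle-treated SAN replicate 1. That library was the highest of the 24 for each of the 4 genes, and for UPK1B the other 11 SAN libraries lay between 1.04 and 1.71.

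With vehicle against t0, 1 of the 5 genes was called in SAN (BNC1, lower), beside 13.6% of all genes, and 2 were called in atria (WT1 and BNC1, lower), beside 19.2%. With CN03 against t0, 3 were called in SAN, beside 32.3% of all genes, and 5 in atria, beside 34.1%. Between SAN and atria, 1 was called at t0 (UPK1B), 2 with vehicle (TCF21 and UPK1B) and 1 with CN03 (TCF21), beside 9.72%, 11.0% and 7.91% of all genes. A difference between the tissues in the CN03 response was called for 2 (UPK1B and PDPN), beside 27.1% of all genes. A difference in the culture response was called for 2 (TCF21 and PDPN), beside 13.0%.

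The log2 ratio of WT1 to BNC1 within a library was 4.51 ± 0.391 with CN03 and 2.66 ± 0.0487 with vehicle in SAN (SD, n = 4 each), a difference of 1.85. In atria it was 4.38 ± 0.381 with CN03 and 2.90 ± 0.139 with vehicle (SD, n = 4 each), a difference of 1.48. BNC1 thus fell further than WT1 in the same libraries. The ratio of WT1 to TCF21 differed less, by -0.46 in SAN and -0.26 in atria. All 10 pairs of the 5 genes were compared in both tissues, 20 ratios in all. The CN03 and vehicle libraries did not overlap for 7 of the 10 ratios in SAN, beside 62.0% of all pairs of genes in the table, and for 10 of 10 in atria, beside 66.8%. The SAN ratios that overlapped were those of WT1, TCF21 and BNC1 over UPK1B. They include vehicle-treated SAN replicate 1, where UPK1B read 4.08 against 1.49 to 1.55 in the other vehicle-treated SAN libraries. Ratios without that library were not computed, so the counts of 7 and 10 do not show a difference between the tissues. By the shares above, separation of the CN03 and vehicle libraries was common among all pairs of genes. With 4 libraries against 4, the smallest p that a two-sided exact permutation test allows is 0.0286, which these 17 ratios reached (0.0336 after Benjamini-Hochberg adjustment over the 20).

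Of the genes most like each member over the 24 libraries, WT1 and BNC1 were on each other's lists. Their Pearson r was 0.982, and 0.72 once the group means had been subtracted. WT1 was closest to WIPF3 (r = 0.987), an actin-regulatory WASP-interacting protein family gene, followed by BNC1, CHRAC1, SULF2 and NKAIN4 (0.980). The genes closest to BNC1 were CSMD2 (0.987), ZNF423, POLE3, WT1 and CHST13 (0.981). TCF21 had weaker partners, led by DEPTOR (0.929), PI15, DMB2, INSRR and AHCYL1 (0.909). PDPN was closest to EVL (0.948), an actin-associated Ena/VASP protein gene, and to the membrane-binding annexin gene ANXA2 (0.945), BDNF, LEPROTL1 and YWHAQ (0.926). UPK1B was closest to PCDHA6 (0.885), TGFBI, the pacemaker transcription factor gene ISL1 (0.852), PRRX1 and NCS1 (0.833). Within groups, r ranged from 0.10 (INSRR with TCF21) to 0.85 (SULF2 with WT1) over the 25 listed pairs, and was also low for POLE3 with BNC1 (0.12) and NCS1 with UPK1B (0.14). These correlations run over libraries of 6 groups that share treatments, and they are descriptions of pattern only.

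Among 34 other epicardial and mesothelial genes, 26 had a row. With CN03 against vehicle in SAN, 2 were called higher and 9 lower, beside 10.2% of all genes called higher and 17.1% lower. In atria 6 were called higher and 7 lower, beside 13.8% and 15.6% of all genes. The median log2 fold change of the list was -0.76 in SAN and -0.42 in atria, beside -0.06 and -0.01 over all genes. Without vehicle-treated SAN replicate 1 the SAN counts were 4 higher and 9 lower, and with quantile normalization 1 higher and 9 lower.

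The largest falls in SAN were those of LRP2, which encodes the endocytic receptor megalin, and TBX5, a T-box factor gene of the posterior heart. LRP2 changed by -2.49 in SAN and -2.06 in atria (limma adjusted p = 4.17e-13 and 6.67e-12). TBX5, also expressed in atrial myocardium, changed by -2.32 and -3.09 (2.62e-10 and 1.21e-12). RSPO1, a secreted WNT pathway agonist, changed by -2.02 in SAN and -1.74 in atria (limma adjusted p = 1.54e-06 and 1.19e-05). TBX18, a T-box factor gene of the epicardium and of the sinus venosus that forms the SAN, changed by -1.79 and -1.80 (7.15e-07 and 5.48e-07).

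Several of these genes are not specific to the epicardium, and TBX18 also marks pacemaker precursors. TBX18 averaged 6.07 ± 0.528 in CN03-treated SAN, 7.86 ± 0.444 in vehicle-treated SAN and 9.24 ± 0.334 in t0 SAN, and 4.87 ± 0.249, 6.67 ± 0.297 and 8.38 ± 0.393 in the same atrial groups (SD, n = 4 each). It therefore had the order of WT1 and BNC1, lowest with CN03 and highest at t0. BNC2, the paralog of BNC1, changed by -1.41 in SAN (limma adjusted p = 6.75e-06) and by -0.93 in atria, short of the fold limit. The GATA factor genes GATA4 and GATA5, which are active in epicardium, myocardium and endocardium, fell by 1.37 and 1.43 log2 units in SAN (limma adjusted p = 2.71e-09 and 3.04e-11). In atria their values of -0.84 and -0.50 were short of the fold limit. GATA6, of the same family, was at 0.10 in SAN (limma adjusted p = 0.516) and at 0.76 in atria (limma adjusted p = 2.77e-05), also short of the limit.

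Some mesothelial genes rose with CN03, as PDPN did. EZR, which encodes the membrane to actin linker ezrin, rose by 1.18 log2 units in SAN and 1.57 in atria (limma adjusted p = 3.22e-11 and 1.36e-13). CLDN1 was called higher in both tissues, at 1.39 in SAN and 3.00 in atria (limma adjusted p = 0.0288 and 3.98e-05), and its SAN value was 2.23 without vehicle replicate 1. In atria the simple epithelial keratin gene KRT7 rose by 1.43 log2 units, LRRN4 by 1.01 and the guidance ligand gene SEMA3D by 1.83. KRT7 passed the fold limit in SAN only without vehicle replicate 1, at 1.03 (limma adjusted p = 0.00012). MSLN, which encodes the mesothelial surface protein mesothelin, changed by -1.17 in atria (limma adjusted p = 0.00717). In SAN the MSLN value was -0.71 (limma adjusted p = 0.0885), or -0.18 (limma adjusted p = 0.577) without vehicle replicate 1.

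**Figure D4:**
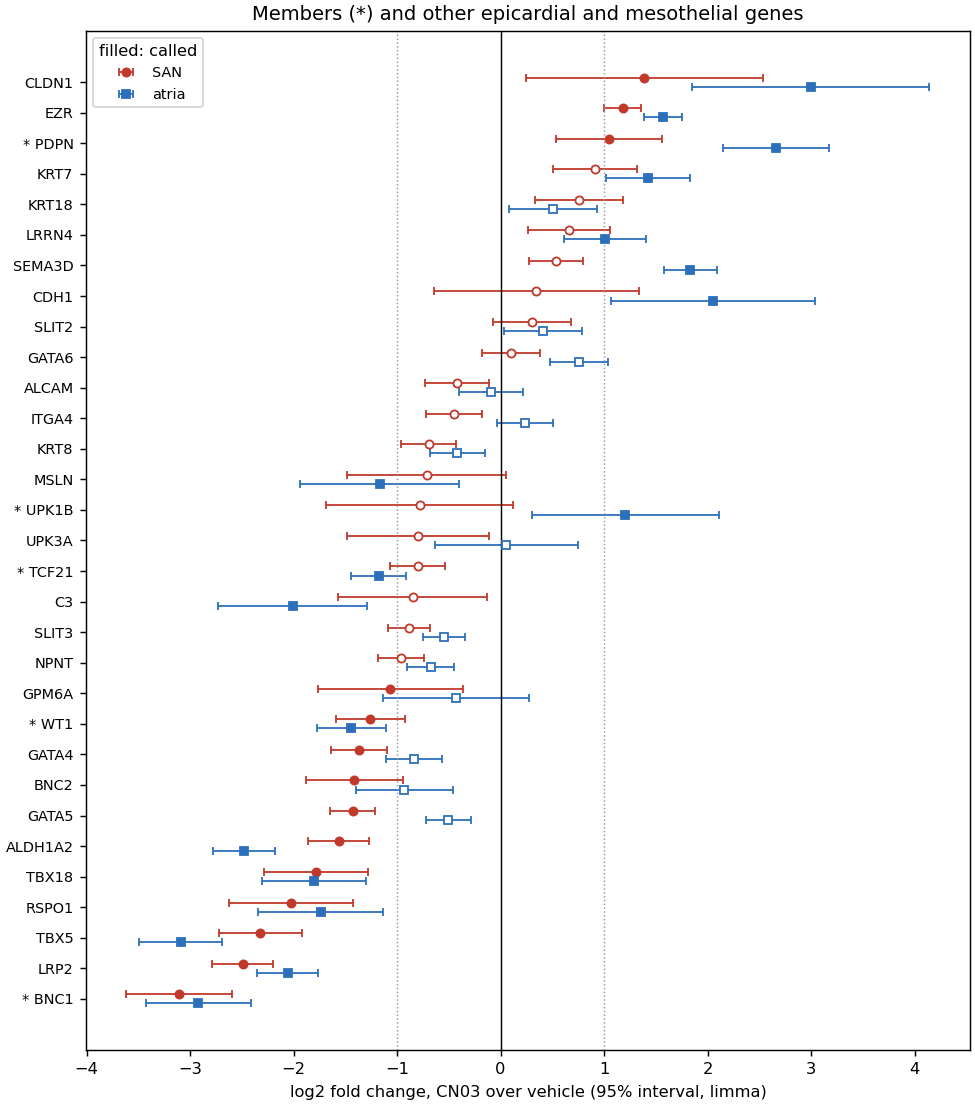
Log2 fold change with CN03 over vehicle in SAN (red circles) and atria (blue squares) for the 5 genes of the set (asterisks) and 26 other epicardial and mesothelial genes, ordered by the SAN value, with 95% intervals from limma; filled symbols were called and dotted lines mark 1 and -1. BNC1 had the lowest SAN value at -3.11 and CLDN1 the highest at 1.39, and 9 of the 26 other genes were called lower in SAN against 2 called higher.

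With vehicle against t0, 3 of the 26 genes were called higher and 4 lower in SAN, where 13.6% of all genes were called, 8.01% higher and 5.59% lower. In atria 3 were called higher and 11 lower, where 19.2% of all genes were called, 10.1% higher and 9.02% lower. TBX18 fell with culture by 1.38 log2 units in SAN and 1.71 in atria, the direction of its CN03 response. LRP2 fell with culture by 1.52 log2 units in atria, and its SAN value of -0.91 was short of the fold limit. KRT7 went opposite ways, lower with culture by 1.50 log2 units in SAN and 2.20 in atria and, over vehicle, higher with CN03 by 0.91 in SAN, short of the limit, and 1.43 in atria. Its CN03 value in SAN was 1.03, past the limit, without vehicle-treated SAN replicate 1. With CN03 against t0, 3 were called higher and 13 lower in each tissue, beside 13.1% of all genes higher and 19.2% lower in SAN and 16.3% and 17.9% in atria.

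Among genes of retinoic acid metabolism and signalling, STRA6, CRABP1, ALDH1A2 and CYP26A1 were called lower with CN03 in SAN, and the receptor gene RARG and the retinol dehydrogenase gene RDH10 were called higher, at 1.20 and 1.13. Of 18 listed, 16 had a row, and 2 were called higher and 4 lower with CN03 in SAN, and 2 higher and 5 lower in atria, beside the shares of all genes given above for each direction. The median of the list was -0.26 in SAN and -0.48 in atria, and with quantile normalization 3 were called lower in each tissue. ALDH1A2, the retinaldehyde dehydrogenase gene that marks the embryonic epicardium, averaged 6.31 ± 0.202 in CN03-treated SAN and 7.88 ± 0.161 in vehicle-treated SAN (SD, n = 4 each), a change of -1.57 (SE 0.143, limma adjusted p = 1.25e-09). In atria it averaged 6.09 ± 0.203 with CN03 and 8.57 ± 0.241 with vehicle (SD, n = 4 each), a change of -2.48 (SE 0.143, limma adjusted p = 2.81e-13). Its response was larger in atria, by a difference of 0.91 between the tissues (limma adjusted p = 0.00170).

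STRA6, which encodes the cellular receptor for retinol-binding protein, changed by -3.04 in SAN (limma adjusted p = 2.66e-06) and -3.27 in atria (limma adjusted p = 8.28e-07). Its SAN value was -2.45 (limma adjusted p = 5.59e-06) without vehicle replicate 1, in which it was highest. CYP26A1, which encodes a retinoic acid degrading enzyme, changed by -1.41 in SAN and -1.23 in atria (limma adjusted p = 2.20e-06 and 1.33e-05). CRABP1, a retinoic acid binding protein gene, was called lower in SAN at -2.34 (limma adjusted p = 0.0197), but without vehicle replicate 1 it was -1.30 (limma adjusted p = 0.133). In atria CRABP1 was at 1.11, the other direction, and was not called (limma adjusted p = 0.255). With vehicle against t0, STRA6 changed by -2.64 in SAN (-3.23 without vehicle replicate 1) and -3.88 in atria. CYP26A1 changed by -2.37 and -2.07. ALDH1A2, at -0.97 and -0.65, was short of the fold limit, and CRABP1, at -0.14 and 0.28, was not called. Of the 16 genes with a row, 3 were called higher and 5 lower in SAN, beside 8.01% and 5.59% of all genes. In atria 2 were called higher and 5 lower, beside 10.1% and 9.02%.

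More EMT genes were called higher than lower with CN03. All 18 listed had a row, and 6 were called higher and 1 lower with CN03 in each tissue, beside 10.2% of all genes higher and 17.1% lower in SAN and 13.8% and 15.6% in atria. The list median was 0.43 in SAN and 0.62 in atria. Without vehicle-treated SAN replicate 1 the SAN counts were 5 higher and 1 lower, as they were with quantile normalization. The matrix glycoprotein gene FN1 rose by 2.18 log2 units in SAN and 2.52 in atria (limma adjusted p = 1.69e-11 and 8.54e-13), and the factor gene TWIST1 by 1.99 and 4.31 (3.21e-08 and 3.76e-14). The ligand genes TGFB2 and TGFB3 rose by 1.84 and 1.64 log2 units in SAN and by 1.95 and 1.76 in atria. SNAI1 and SNAI2, repressor genes of the epithelial state, were at 0.03 and -0.24 in SAN (limma adjusted p = 0.849 and 0.129). In atria SNAI1 was at 0.69 (limma adjusted p = 0.000126), short of the fold limit, and SNAI2 at -0.02 (limma adjusted p = 0.906). PDGFRA, a receptor gene of epicardium-derived fibroblasts, was the one called lower, at -1.16 in SAN and -1.08 in atria. FN1 and the TGFB genes are made by many cell types of the heart, and the cells in which they changed were not identified here.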

How the data were processed

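RNA of 24 libraries was analysed, 4 in each of 6 groups. Per the paper's methods and the submitters' processing notes, the authors prepared ribosomal RNA-depleted stranded libraries, mapped reads with kallisto to GRCg7b, filtered with edgeR and tested with limma. Versions and the normalization are not given in the sources used here. The deposited values are log2 expression per gene symbol, filtered and normalized by the authors. The read depth is unknown, so precision rests on the replicate spread. A row without a symbol, 6.58 to 17.9% of each library's linear sum, was left out. Every value column was assigned to a sample by its name.

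A mean per group was fitted with limma 3.58.1 in R 4.3.3 (18 residual degrees of freedom, mean-variance trend). The fit was tested on simulated data with libraries drawn independently, so that test does not cover correlation between same-numbered pools. Benjamini-Hochberg adjustment ran over the 12422 genes within each of the 11 comparisons, and not across comparisons. Figures were drawn with matplotlib 3.10.9. Coordinates come from the RefSeq gene table of GRCg7b, in which all 6 genes were found. No sequences were used here. Replicates are separate pools, and nothing states which embryos each pool came from.

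The genes and lists were chosen with earlier results of these data known. Text on members covers each one with a row, the 5 genes with the highest Pearson r to each, and, per list, the 4 called genes that CN03 moved most in SAN. List genes beyond these were named after their values were seen. Marker sums add linear values. Alternatives were a pseudocount of 1, a mean log2 above 1, quantile normalization, median centring, a replicate block, only the groups compared, no trend, no fold limit and leaving out each library. Deviations of same-numbered pools correlated above 0.1 in 40 of 60 pairs over all groups. For CN03 against vehicle in atria and SAN against atria at t0, and for no other 2 groups, all 4 pairs did so. Counts of list genes under other scalings, with the block and without vehicle-treated SAN replicate 1 were added after seeing the data.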

Additional observations from a re-analysis of the deposited data

Results flagged for a closer look

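UPK1B in vehicle-treated SAN replicate 1 was 4.08, far above the other 3 libraries of its group at 1.49 to 1.55. It was the single one of 30 gene and group combinations in which the extreme library's gap passed Dixon's 95% critical value for 4 samples, a limit that chance passes in about 1 of 20 groups.

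In 4 cases the response of a gene differed between SAN and atria by limma's interaction test. Such a difference was called for 27.1% of all genes in the CN03 response and 13.0% in the culture response. The CN03 response of UPK1B differed by -1.99 log2 units (SAN minus atria, limma adjusted p = 0.0196), and by -1.35 (0.0292) without that SAN library. The CN03 response of PDPN differed by -1.61 (limma adjusted p = 0.00139) and its culture response by 1.34 (limma adjusted p = 0.0123). The culture response of TCF21 differed by 0.76 (limma adjusted p = 0.00693).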

How the results depend on the processing

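Across 32 alternative settings, 24 of which left out a library, 909 of 939 values of a gene in a comparison kept their direction and their side of the threshold. Calls of the 5 genes changed as follows. With only genes of mean log2 above 1, which drops UPK1B, 0 were called for SAN against atria at t0 (1 in the full fit), 1 with vehicle (2) and 1 for the tissue difference in the CN03 response (2). Dropping UPK1B also removed its calls with CN03 in atria, against vehicle and against t0. With the pseudocount of 1, UPK1B was called in neither of these. It was at 0.67 against vehicle (limma adjusted p = 0.0603) and at 0.84 against t0 (limma adjusted p = 0.0193), short of the fold limit. With no fold limit, 3 were called for vehicle against t0 in SAN (1) and 3 in atria (2), and 4 for CN03 against vehicle in SAN (3). For SAN against atria, 2 were called at t0 (1), 3 with vehicle (2) and 2 with CN03 (1). Over the whole table, dropping the limit gave 6389 calls for vehicle against t0 in SAN (1690) and 7325 in atria (2380). It gave 8843 for CN03 against vehicle in SAN (3400). Calls among all genes thus rose as well. Leaving out each library gave 1 to 3 calls of the 5 genes for vehicle against t0 in atria (2). For CN03 against vehicle it gave 2 to 3 in SAN (3) and 4 to 5 in atria (5).

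The sign turned only for values that were not called. UPK1B with CN03 against t0 in SAN (-0.08) was 0.44 with quantile normalization and lay between -0.20 and 0.037 as each library was left out, positive without SAN_CN03 replicate 2 or SAN_t0 replicate 2. Its difference in the culture response (0.26) lay between -0.38, without SAN_vehicle replicate 1, and 0.64. BNC1 for SAN against atria at t0 (-0.03) was 0.084, 0.00267 and 0.14 without SAN_t0 replicate 1, SAN_t0 replicate 3 and Atria_t0 replicate 2, and its difference in the CN03 response (-0.19) was 0.014 without Atria_CN03 replicate 3. TCF21 with vehicle against t0 in atria (-0.10) lay between -0.25 and 0.015, positive without Atria_t0 replicate 2. TCF21 with CN03 in SAN passed the fold limit with quantile normalization (-1.11), and PDPN there did not (0.95). WT1 with vehicle against t0 in atria was -0.90 and -0.89 without Atria_vehicle replicate 1 and Atria_t0 replicate 2. PDPN in that comparison passed the limit without any of 4 other libraries (-1.03 to -1.10). Causes were not tested.

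Deviations of same-numbered libraries correlated above 0.1 in 40 of 60 pairs (mean 0.17, range -0.17 to 0.55). In 36 of 60 matches a library was closest to its own number among 4 candidates. Such a pairing is seen in the data and is not stated in the design. For CN03 against vehicle in SAN the r values were 0.35, 0.32, 0.27 and -0.09. All 4 pairs passed 0.1 for CN03 against vehicle in atria and for SAN against atria at t0, and for no other 2 groups set against each other. The replicate block gave 3 calls for CN03 against vehicle in SAN and 5 in atria and changed no call of the 5 genes. Over the whole table it gave 3983 calls for the tissue difference in the CN03 response (3371) and 2056 in the culture response (1613). The counts in the text for the lists of other epicardial and mesothelial, retinoic acid and EMT genes were the same with the block. Counts of cell type markers were not recomputed with it.

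Over the whole table, calls for SAN against atria were 786 at t0 with the pseudocount and 797 with the filter (1208 in the full fit), and 586 with CN03 and the pseudocount (983). With no fold limit they were 4457 at t0, 5289 with vehicle and 4716 with CN03. Low values such as those of UPK1B, and of BNC1 with CN03, carry no known read count, so their precision beyond the replicate spread is unknown.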
